A study of Homo sapiens with 2 samples.

Results

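The miRNA entries described here are the human precursors numbered 3000 or more in miRBase, the registry of miRNA hairpins, that were counted in Argonaute pulldowns from HEK293 cells. Numbers in the registry follow the order of submission, so these are late additions. An entry was taken when its counts in the AGO2 and AGO3 libraries summed to at least 20, with any letter or copy number, and mir-3158, mir-3676, mir-3677, mir-3685, mir-4454, mir-4521 and mir-4717 were left out with their copies. This gave 182 members out of 405 late entries with any count and out of 1038 entries of all numbers, so members were chosen by their summed counts, and their abundance is a description and not a finding. Of the members 86 are numbered in the 3000s, 72 in the 4000s and 24 from 5000 up. At the edge of the minimum, mir-3136 (9 AGO2 and 11 AGO3 counts), mir-4430 (17 and 3), mir-4638 (3 and 17), mir-4684 (6 and 14), mir-4714 (11 and 9) and mir-5585 (13 and 7) sit on 20 counts. Just outside it, mir-3941 (8 and 11), mir-4254 (11 and 8) and mir-4449 (16 and 3) have 19.

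The study sequenced small RNA bound to FLAG-tagged AGO2 or FLAG-tagged AGO3 in HEK293 T-Rex cells, a human embryonic kidney line built for inducible transgenes, with 1 library per protein. The groups share the cell line, lysis in NP40 buffer, capture on magnetic beads against the tag, release of the RNA with proteinase K and phenol chloroform, and ligation of custom adapters. The tagged proteins were expressed from transgenes, and no library without a tag was analysed here as a background. The 3′ adapter sequence differs between the libraries, so protein, adapter and pulldown cannot be told apart. In bulk RNA, fewer cells holding a miRNA and less of it per cell cannot be told apart either. With 1 library per group there is no replicate error and therefore neither a test nor a p-value.

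Argonaute proteins bind small RNAs of the length that Dicer releases from a hairpin, and the seed, bases 2 to 8 of the bound strand, chooses the target RNAs. A canonical precursor is cut by Drosha and then by Dicer, and as a rule either strand of the resulting duplex can be kept. Some hairpins skip Drosha and are released by splicing as whole short introns, called mirtrons. Many late registry entries came from deep sequencing alone, and some of them lie on the opposite strand of an older hairpin, exist in several copies or lie inside other RNA classes.

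Mature sequences were taken from RefSeq (GRCh38.p14), where 154 of the 182 members had an entry. They are written 5′ to 3′ with the seed in capitals. The first set is shown because these hairpins lie opposite older ones, so that the strands printed next to each other are largely complementary.
miR-3184-5p: uGAGGGGCcucagaccgagcuuuu
miR-423-3p: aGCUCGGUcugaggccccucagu
miR-3184-3p: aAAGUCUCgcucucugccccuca
miR-423-5p: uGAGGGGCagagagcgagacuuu
miR-3074-5p: gUUCCUGCugaacugagccag
miR-24-3p: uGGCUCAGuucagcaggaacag
miR-3065-5p: uCAACAAAaucacugaugcugga
miR-338-3p: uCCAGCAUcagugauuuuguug
miR-3130-5p: uACCCAGUcuccggugcagcc
miR-3130-3p: gCUGCACCggagacuggguaa

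On the genome miR-3184-3p overlaps miR-423-5p on the other strand by 23 bases and miR-3184-5p overlaps miR-423-3p by 21. The overlap is 20 bases for miR-3074-5p with miR-24-3p and 22 bases for miR-3065-5p with miR-338-3p. The hairpins mir-3130-1 and mir-3130-2 lie opposite each other, and miR-3130-5p of either overlaps miR-3130-3p of the other by 20 bases. By sequence alone, miR-3184-5p and miR-423-5p have the same seed although they come from opposite strands.

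The next set holds the most abundant member and members that stood on either side of the comparison of AGO3 with AGO2.
miR-3613-5p: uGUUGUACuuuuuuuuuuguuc
miR-3613-3p: aCAAAAAAaaaagcccaacccuuc
miR-3177-3p: uGCACGGCacuggggacacgu
miR-3657: uGUGUCCCauuauuggugauu
miR-5682: gUAGCACCuugcaggauaaggu
miR-5699-5p: uGCCCCAAcaaggaaggacaag
miR-5699-3p: uCCUGUCUuuccuuguuggagc
miR-4733-5p: aAUCCCAAugcuagacccggug
miR-3186-3p: uCACGCGGagagauggcuuug
miR-4485-3p: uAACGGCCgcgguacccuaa

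The last set is shown for hairpins at splice sites, for stacks with about as many edits as reads, and for seeds shared with older miRNAs.
miR-3620-3p: uCACCCUGcaucccgcacccag
miR-5010-3p: uUUUGUGUcucccauuccccag
miR-5006-3p: uUUCCCUUuccauccuggcag
miR-4804-5p: uUGGACGGuaagguuaagcaa
miR-4707-3p: aGCCCGCCccagccgagguucu
miR-4429: aAAAGCUGggcugagaggcg
miR-320b: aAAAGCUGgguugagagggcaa
miR-3155a: cCAGGCUCugcagugggaacu
miR-484: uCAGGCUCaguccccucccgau

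Precursor counts summed to 3485257 in AGO2, 52.2% of its 6674064 reads, and to 3055417 in AGO3, 65.5% of its 4667236. Where an entry is at 0, up to 3 counts remain possible, which is 0.861 counts per 1000000 (CPM) in AGO2 and 0.982 CPM in AGO3. All 6 HOX-cluster precursors fixed as markers of the kidney-derived line were counted and held 5.31% of counts in AGO2 and 6.27% in AGO3. Of 26 precursors that mark other cells 20 were counted; they held 3.19% and 5.19%, or 0.305% and 0.502% without mir-126, and mir-206, mir-223, mir-302d, mir-371, mir-372 and mir-373 were at 0 in both libraries. Their part in the results on late entries was not tested.

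The members held a small share of Argonaute-bound miRNA. They took 29297 AGO2 counts, or 0.841% (95% exact Clopper-Pearson interval 0.831 to 0.850) of all precursor counts, and 29534 AGO3 counts, or 0.967% (0.956 to 0.978). Counts were concentrated in few entries: 7 members reached 1000 counts or more over both libraries and 67 reached 100. The top 5 held 55.6% of all member counts. All intervals cover counting error only, since the reads carry no molecular identifiers.

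The most abundant member was mir-3613, whose hairpin lies in the DLEU2 transcript, the long noncoding RNA that also hosts the tumour-suppressor cluster mir-15a/16-1. It had 6277 AGO2 and 3597 AGO3 counts. The stack of reads over it is at chr13:50570562-50570643 on the minus strand of hg19. Its AGO3 share was lower, with a log2 ratio of AGO3 over AGO2 of -0.61 (-0.67 to -0.55).

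The next 3 entries in abundance are those opposite mir-24-1, mir-423 and mir-338. Counts were 3292 in AGO2 and 2715 in AGO3 for mir-3074, 2390 and 3526 for mir-3184, and 2308 and 3294 for mir-3065. The shares of mir-3184 and mir-3065 were higher in AGO3, with log2 ratios of 0.75 (0.68 to 0.83) and 0.70 (0.63 to 0.78). For mir-3074 the ratio was -0.09 (-0.16 to -0.01), close to equal shares.

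Next was mir-4523, annotated in TAOK1, a kinase gene, with 2730 AGO2 and 2599 AGO3 counts (chr17:27717684-27717749, plus strand). Its log2 ratio of 0.12 (0.04 to 0.20) became -0.04 when the libraries were scaled by TMM, so its direction depends on the scaling. The same holds for mir-3615, in an exon of the scaffold gene SLC9A3R1, with 459 and 406 counts and a ratio of 0.01 (-0.18 to 0.21) that became -0.15 under TMM. For mir-4423, 387 and 381 counts gave 0.17 (-0.04 to 0.38). These 3 entries were near equal shares in the libraries.

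Intronic members among the 12 most abundant had higher AGO3 shares, but those below them went both ways. Of all 87 members with a stack in a coding intron, 58 had a ratio above 0 and 29 below. Over all 182 members, 117 were above 0 and 65 below. Over all 638 entries with at least 20 counts, 353 were above 0 and 285 below. mir-3176, in an intron of SOLH, a calpain-family protease gene, had 762 AGO2 and 931 AGO3 counts and a log2 ratio of 0.48 (0.34 to 0.62). mir-3177, in an intron of MAPK8IP3, a scaffold gene of the JNK pathway, had 491 and 994 counts and a ratio of 1.21 (1.05 to 1.37). mir-3657, in NAA25, a subunit of an N-terminal acetyltransferase, had 273 and 622 counts and a ratio of 1.38 (1.17 to 1.59). The last 2 were more than 2-fold higher in AGO3 by the whole of their interval. Under TMM the ratio of mir-3177 became 1.05, and its interval no longer lay wholly beyond 2-fold.

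The comparison between libraries asked which late entries took a larger share in AGO3 or in AGO2. Over all 638 entries with at least 20 counts, 18.0% had a share in AGO3 at least 2-fold above that in AGO2, and 10.8% at least 2-fold below it. Of the 182 members 46 (25.3%) were at least 2-fold higher and 12 (6.59%) at least 2-fold lower, and 124 lay within 2-fold. Of the 448 entries numbered below 3000 with at least 20 counts, 66 were higher and 54 lower. When the libraries were scaled by TMM, which lowers every log2 ratio by 0.16, the members' counts became 37 higher and 19 lower, and the background 14.9% and 13.6%.

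The members' median log2 ratio was 0.43 (quartiles -0.43 and 1.02, SD 1.08, n = 182), against 0.15 over all 638 entries and 0.05 over the 448 earlier ones. The ratio was above 0 in 117 members and below 0 in 65, beside 353 and 285 of all 638 entries. Under TMM it was above 0 in 109 members and below 0 in 73. The difference between the members' median and that of all entries was 0.28 under the sum of counts, median of ratios and TMM alike, because a scaling shifts all entries together. With at least 100 counts, the 67 members had a median of 0.18, against 0.08 over all 411 such entries and 0.05 over the 336 earlier ones. The 115 members with 20 to 99 counts had a median of 0.52, against 0.31 over all 227 entries in that range and -0.03 over the 112 earlier ones.

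Read by counting error, fewer members stood apart. The interval lay wholly beyond 2-fold higher in 18 members, where 10.2% of all entries did, and wholly beyond 2-fold lower in 3, where 3.92% did. It left out equal shares in 104 members (57.1%), where it did so in 69.3% of all entries. With at least 100 counts, 9 of 67 members were wholly beyond 2-fold higher and 0 wholly lower, where 12.9% and 4.87% of entries were, and equal shares were left out in 55 (82.1%), where they were in 84.7%. Among the 67 members with at least 100 counts, 13 were at least 2-fold higher and 2 lower, where 15.8% and 8.76% of the 411 entries were. By number, the median was 0.54 in the 3000s (19 higher, 4 lower), 0.53 in the 4000s (22 and 6) and 0.10 from 5000 up (5 and 2). These counts are 22.1% and 4.65%, 30.6% and 8.33%, and 20.8% and 8.33% of their ranges. Of all 638 entries, 18.0% were higher and 10.8% lower.

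**Figure D1:**
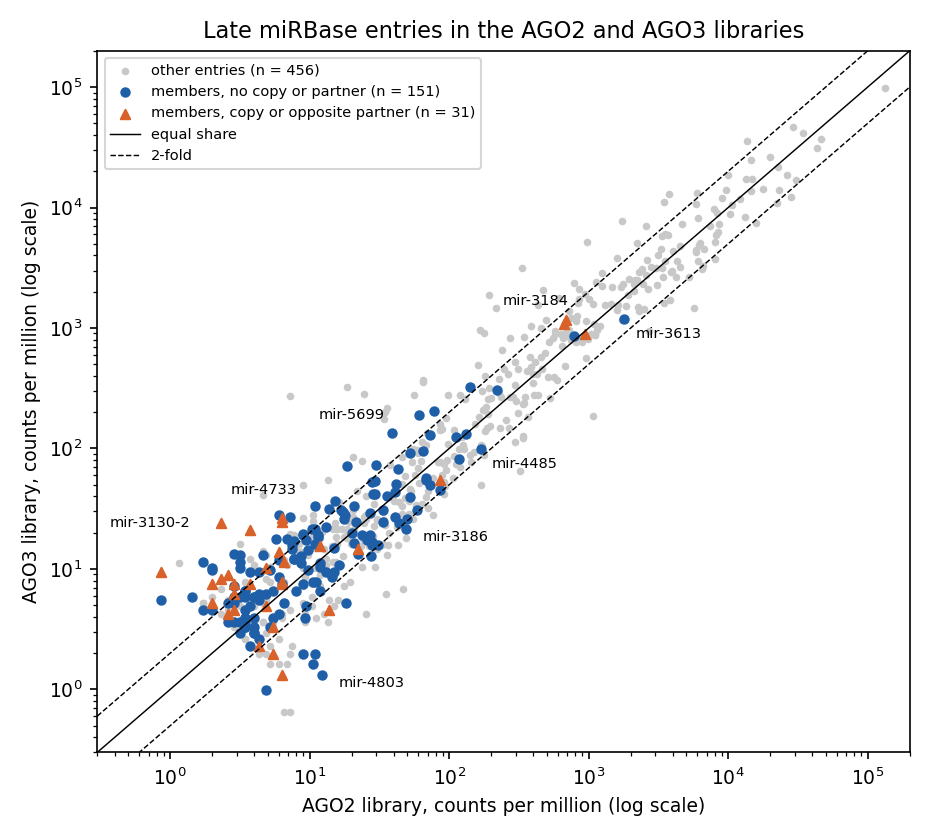
Each point is an entry with at least 20 counts, by its CPM in the AGO2 library (x) and the AGO3 library (y), both on log scales; grey points are the 456 other entries, blue circles the 151 members without a copy or opposite-strand partner and orange triangles the 31 members with either. The solid line is an equal share and the dashed lines are 2-fold; 46 members lie on or above the upper dashed line and 12 on or below the lower.

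Among members with at least 100 counts, the largest ratio belonged to mir-4733, with 21 AGO2 and 86 AGO3 counts and a log2 ratio of 2.20 (1.52 to 2.99). It lies at chr17:29421366-29421442 on the minus strand, where 443 stack reads are on the opposite strand and 57 on its own. mir-3155a, in an intron of PFKFB3, a regulator of glycolysis, followed with 22 and 81 counts and 2.04 (1.38 to 2.82). In both entries the AGO3 count is several times the AGO2 count, on few reads.

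Larger counts stood behind 3 intronic members. mir-4664, in the enamel gene FAM83H (chr8:144815259-144815317, minus strand), had 64 AGO2 and 220 AGO3 counts, a log2 ratio of 1.96 (1.56 to 2.40). mir-5699, in DIP2C (chr10:687615-687728, minus strand), had 135 and 414 counts, 1.80 (1.52 to 2.10). mir-5682, in STXBP5L, a syntaxin-binding protein gene (chr3:120768496-120768557, plus strand), had 212 and 574 counts, 1.62 (1.40 to 1.86). All 3 were higher in AGO3 by more than 2-fold over the whole interval.

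The remaining entries among the 8 highest were mir-3187, with 25 and 82 counts (1.88, 1.24 to 2.61), mir-5708, with 38 and 102 counts (1.60, 1.06 to 2.19), and mir-3657, given above. No stack on its own strand names mir-5708, and 3 reads lie opposite it. For mir-5708 the precursor count therefore has no counterpart in the stack list.

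At the low end the ratios were smaller in size. The lowest with at least 100 counts was mir-3186, with 172 AGO2 and 65 AGO3 counts and a log2 ratio of -1.21 (-1.65 to -0.79). No stack names mir-3186 on its own strand, while 1525 reads lie on the other strand, in stacks at chr17:79418143-79418167 (1349 reads) and chr17:79418179-79418211 (176 reads), both on the plus strand. In the stack list, the reads at this hairpin lie on the strand that does not carry the entry.

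mir-4783 followed, with 96 and 39 counts and a ratio of -1.10 (-1.69 to -0.56). mir-5096, with no stack, had 205 and 95 counts and -0.92 (-1.29 to -0.56). The intervals of both entries include 2-fold and leave out equal shares.

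Retroelement sequence lay under others of the 8 lowest. mir-3929, whose stack overlaps an AluJb repeat, had 174 AGO2 and 80 AGO3 counts and a log2 ratio of -0.93 (-1.33 to -0.54). mir-3144, in an L1MA8 repeat, had 98 and 48 counts and -0.83 (-1.37 to -0.33). Of the 17 members whose stack overlaps an interspersed repeat, 3 were at least 2-fold higher and 0 at least 2-fold lower, beside 18.0% and 10.8% of all entries. Their median was 0.18, beside 0.43 over all members and 0.15 over all entries.

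The widest ratios came from members with 20 to 99 counts, where intervals are wide. mir-3130-2 had 8 AGO2 and 73 AGO3 counts (log2 ratio 3.30, 2.33 to 4.64), mir-4433 had 3 and 29 (3.25, 1.77 to 5.82) and mir-4665 had 6 and 35 (2.63, 1.47 to 4.27). At the other end mir-4803, in an intron of the microtubule-protein gene MAP1B, had 43 and 4 (-3.09, -5.18 to -1.78), mir-4484 had 37 and 5 (-2.59, -4.40 to -1.35) and mir-5696 had 38 and 6 (-2.38, -4.01 to -1.22). In both directions the smaller of the counts was 8 or less.

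A member chosen after its values were seen is mir-3618, in an exon of DGCR8, the RNA-binding partner of Drosha. It had 63 AGO2 and 16 AGO3 counts and a log2 ratio of -1.76 (-2.68 to -0.98), with 551 stack reads at chr22:20073259-20073351 on the plus strand.

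Entries on the strand opposite another hairpin were compared in 2 ways, by counts per entry and by the stack list, which keeps the strand of each stack but pools the libraries. By counts, mir-3184 held 42.6% of what it and mir-423 held together, against 1649 AGO2 and 6331 AGO3 counts of mir-423 itself. By stranded reads, mir-3184 held 0.0350% of the pair, 185 reads (chr17:28444111-28444183, minus strand) against 527845 on the strand of mir-423. The same direction appeared for mir-3074 with mir-24-1, at 40.6% of counts and 5.72% of reads (968 against 15954), and for mir-3065 with mir-338, at 54.6% and 22.8% (9870 against 33369). In these 3 pairs the late entry held a larger share of the counts than of the stranded reads. mir-3529 with mir-7-2 went the other way, at 42.4% of counts and 100% of reads, but on 10 reads against 0. No source used here says whether the counting used strand. Nearly all stacks carry a mapping class that begins with UNIQ. Stack reads matching several places may therefore be missing for numbered copies such as mir-24-1, mir-7-2 and mir-3913-2, which was not tested.

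Pairs of late entries opposite each other were closer to even in counts than in reads. mir-3150a held 37.9% of the counts and 99.7% of the reads of its pair with mir-3150b, mir-4659a 53.2% and 99.7% with mir-4659b, mir-3622a 66.7% and 99.2% with mir-3622b, and mir-3913-1 52.1% and 100% with mir-3913-2. The shares were alike for mir-3199-1 with mir-3199-2, at 41.8% and 38.8%. mir-3120, opposite mir-214 in an intron of DNM3, a dynamin gene, went the other way from the abundant pairs, with 46.8% of the counts and 78.9% of the reads. These shares rest on few counts over both libraries, and no interval was taken for them. mir-3150a and mir-3150b had 22 and 36 counts, mir-4659a and mir-4659b 33 and 29, and mir-3120 and mir-214 22 and 25. For mir-3622b there were 12.

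The ratio of AGO3 over AGO2 also differed between the entries of a pair. It comes from the counts, whose use of strand is not stated, so it compares entries and not strands. mir-423 had a log2 ratio of 2.13 beside 0.75 of mir-3184, mir-24-1 had 0.79 beside -0.09 of mir-3074, and mir-338 had 1.13 beside 0.70 of mir-3065. Of the listed opposite-strand entries, 14 counted and 6 members, 4 were higher in AGO3 and 2 lower, and the median was 0.70. None was 2-fold apart, where 28.8% of all entries were. The lowest and highest of the 6 were mir-3150a, with 15 AGO2 and 7 AGO3 counts (-0.87, -2.45 to 0.47), and mir-3150b, with 13 and 23 (0.98, -0.03 to 2.12), whose intervals include equal shares.

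**Figure D2:**
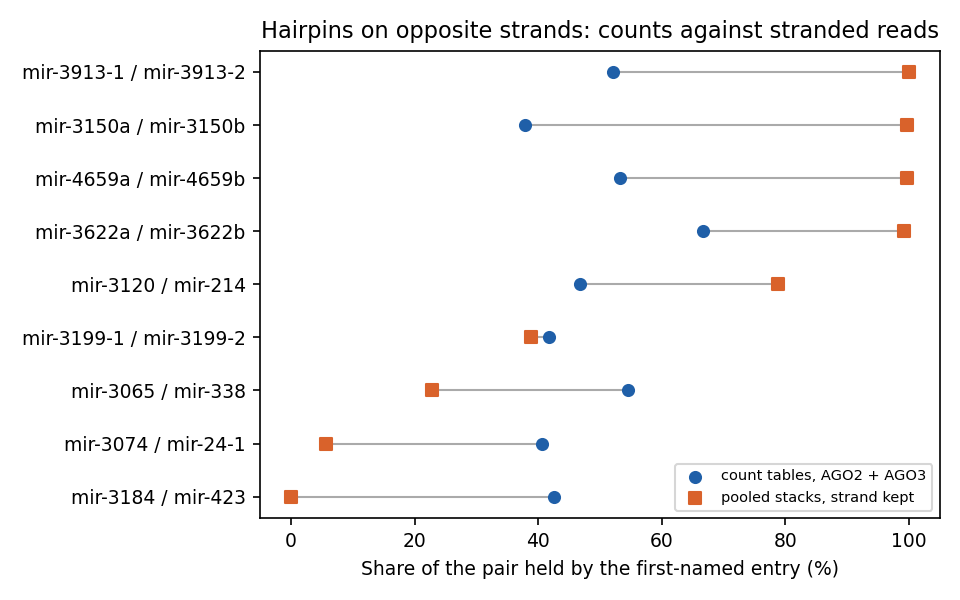
For 9 pairs of hairpins on opposite strands with at least 100 stack reads, the share of the pair held by the first-named entry (x, in %) by precursor counts over both libraries (blue circles) and by reads in the pooled, stranded stacks (orange squares), joined by a line. The counts lie between 37.9% and 66.7% in every pair shown, while the stranded reads run from 0.0350% to 100%.

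Opposite stacks were not restricted to these pairs. Of the 182 members, 51 had at least 1 stack on the opposite strand, and 15 had more reads there than on their own. Those 15 had a median log2 ratio of 0.75, beside 0.43 over all members. Of them 5 were at least 2-fold higher and 2 lower, where 18.0% and 10.8% of all entries were. The 15 include mir-4733, mir-3186 and mir-4433 (24 reads on its own strand and 63 opposite).

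Some entries are listed as parts of other RNA classes, and 4 of the 8 counted were members, in ribosomal precursor or mitochondrial RNA. All 4 had ratios below 0, as did 285 of all 638 entries, and 1 was at least 2-fold lower, as were 10.8% of all entries. Their median was -0.91, with 880 AGO2 against 430 AGO3 counts in all. mir-4485, within mitochondrial ribosomal RNA, had 589 and 302 counts (-0.77, -0.98 to -0.57). mir-4461, matching mitochondrial RNA, had 31 and 6 (-2.10, -3.73 to -0.90).

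The other 2 lie in the ribosomal RNA precursor. mir-3648 had 152 AGO2 and 74 AGO3 counts (-0.84, -1.27 to -0.44) and mir-3687 had 108 and 48 (-0.97, -1.50 to -0.48). They share 1 stack of 4399 reads and 1059 bases, chr21:9825439-9826497 on the plus strand, far longer than a hairpin. No stack names mir-4485, and 19 reads, in an intron of PCBD2, name mir-4461. The listed small nucleolar entries mir-3607 and mir-3651, with 3 AGO2 and 0 AGO3 counts each, mir-3653, with 1 and 0, and the ribosomal mir-3656, with 0 and 1, were below the minimum.

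Numbered copies, whose reads can be divided between loci, numbered 19 members. Of these 9 were 2-fold or more higher in AGO3 and 3 were 2-fold or more lower, where 18.0% and 10.8% of all entries were. Their median log2 ratio was 0.78, beside 0.15 over all entries. The most counted were mir-3910-2 (77 AGO2 and 45 AGO3 counts, -0.58, -1.15 to -0.04), mir-3130-1 (22 and 75, 1.93, 1.26 to 2.72), mir-3910-1 (41 and 47, 0.38, -0.25 to 1.03) and mir-3130-2, given above. The copies of mir-3910 have the same mature sequence, and their ratios had opposite signs, though the interval of mir-3910-1 includes equal shares. No source used here says how reads matching several entries were counted, so values of single copies are uncertain.

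The stack list places reads on the genome of build hg19 and pools libraries that it does not name, so nothing in it separates AGO2 from AGO3. It holds 502547 stacks, of which all but 1, 502546, carry a mapping class that begins with UNIQ. Of these, 256 stacks with 274563 reads name a member on their own strand, 0.519% of the reads in stacks that name any miRNA precursor. A stack was found for 152 of the 182 members (83.5%), and for 336 of the 448 earlier entries (75.0%). Of the 30 members without a stack, 16 are numbered copies. Their median log2 ratio was 0.13, with 9 at least 2-fold higher in AGO3 and 5 lower.

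Ranked by stack reads rather than counts, the order of the members changed. mir-3613 stayed first, with 86653 reads, but mir-3200, in an intron of the oxysterol-binding gene OSBP2 (chr22:31127554-31127621, plus strand), came next with 26719. It had 413 AGO2 and 251 AGO3 counts (-0.53, -0.76 to -0.30). mir-4787 (chr3:50712523-50712587, plus strand) followed with 15849 reads from 150 and 205 counts (0.64, 0.33 to 0.95).

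Below them came mir-3615 with 14241 reads (chr17:72744767-72744831, plus strand), mir-3176 with 11046 (chr16:593277-593368, plus strand), mir-3065 with 9870, mir-4523 with 8159 and mir-4286 with 5393. mir-4286 (chr8:10524492-10524518, plus strand) had only 27 AGO2 and 37 AGO3 counts (0.63, -0.11 to 1.42). Its 84.3 stack reads per count were the most among the members. Among members with a stack the fewest, 0.00649, belonged to mir-4785, in an intron of RBMS1, with 182 and 280 counts and 3 reads, chosen after its values were seen.

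Across the 152 members with a stack the rank correlation (Spearman) of counts with stack reads was 0.59, and across the 336 earlier entries it was 0.84. This is a description over entries, which share the libraries and are not independent. mir-3184 and mir-3074, whose reads lie mostly on the opposite strand, are far below the others at their count. mir-3529, opposite mir-7-2, had 298 AGO2 and 166 AGO3 counts and 10 reads, and was also named after its values were seen.

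**Figure D3:**
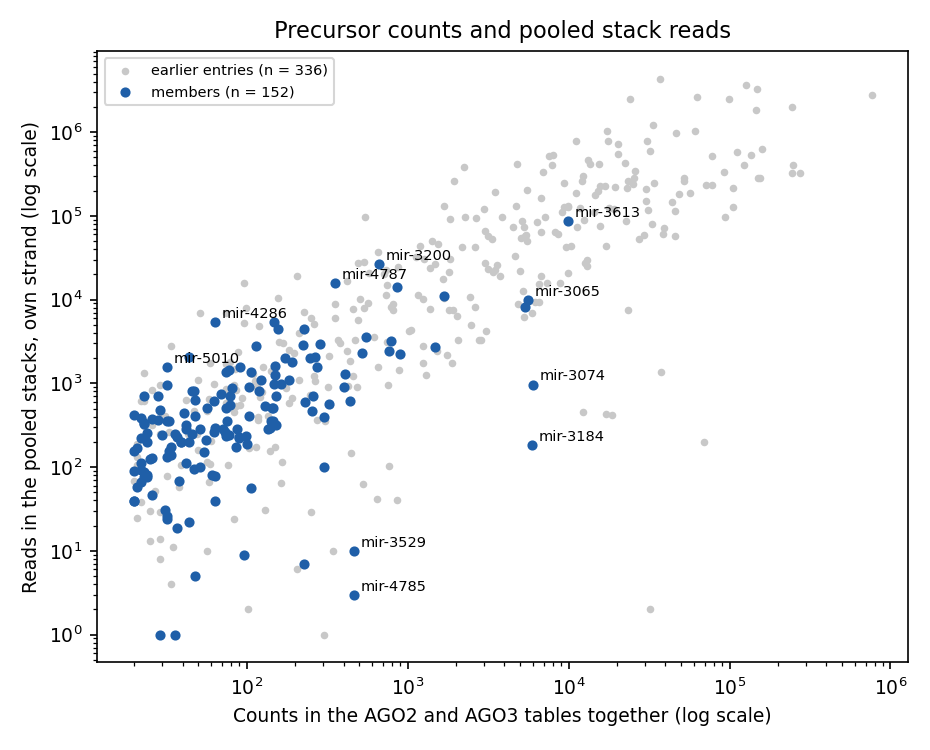
Counts over both libraries (x) against reads in the pooled stacks on the entry's own strand (y), both on log scales, for 152 members (blue) and 336 earlier entries (grey). mir-3184, mir-3074, mir-3529 and mir-4785 lie far below the other members of like count, and mir-3200, mir-4787 and mir-4286 lie above.

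Most stacks were short, but at the median longer than a mature miRNA. The median length was 26 bases, against 22 for the members' mature miRNAs in RefSeq. Of 257 pairs of a stack with a member, 185 were 20 to 30 bases long and 34 were over 60. By the list's annotation, 87 members had a stack in an intron of a coding transcript and 15 in a coding transcript's exon, and 23 had a stack overlapping a repeat. Intronic location was about as frequent among earlier entries with a stack, 51.5% against 57.2% of the members.

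For 99 members, exactly 2 stacks with at least 20 reads together lay on the own strand. They are called the 5′ and 3′ sides by their order alone. Only their spacing was set against the mature miRNAs, where both arms are in RefSeq. The 5′ side held more reads in 50 and the 3′ side in 49. The median share of the richer side was 75.5%, and 21 members (21.2%) had over 90% on 1 side. Among 133 earlier entries measured the same way, the median was 92.3% and 75 (56.4%) had over 90% on 1 side.

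Depth differs between these sets, with a median of 352 reads per hairpin in the members and 3057 in the earlier entries. Between 100 and 2000 reads, 71 members (median depth 352 reads) had a median of 72.3% and 55 earlier entries (623 reads) had 89.2%. Among hairpins with a stack on each side, the members' reads were thus more evenly divided in this range of depth too. Hairpins with a lone short stack were not measured, such as mir-3929, with 468 reads in a stack of 31 bases. The most one-sided hairpins can therefore be missing from either set, and how this bears on the medians was not tested. Members for which both arms are in RefSeq numbered 59 here, and in 39 of them the spacing of the stacks' 5′ ends was within 3 bases of the spacing of the mature miRNAs.

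Single members ranged over the whole scale. In mir-3615 the 5′ side held 0.154% of 14241 reads, in mir-3176 2.15% of 11046 and in mir-4787 6.95% of 15849. In mir-4523 the 5′ side held 98.1% of 8159, and in mir-3065 83.0% of 9870. In mir-5699, both of whose arms are printed above, the 5′ side held 54.6% of 3605 reads, and in mir-4423 53.3% of 2411. The stacks of mir-5699 are 53 and 52 bases long, and their 5′ ends lie 62 bases apart, against 49 for its mature miRNAs. Deeply read members therefore included hairpins read from a single side and hairpins read from both.

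**Figure D4:**
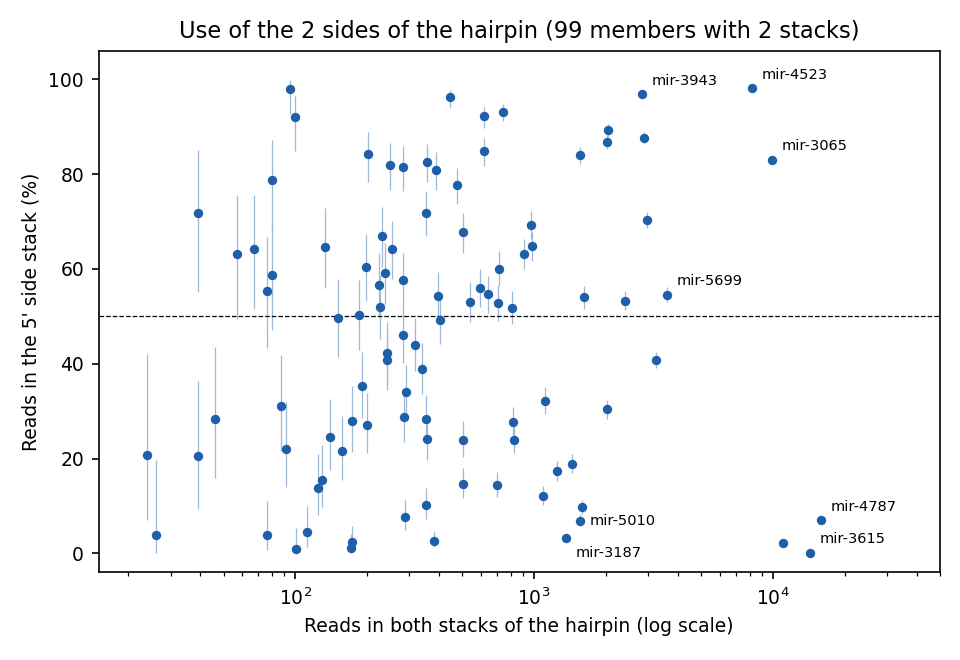
Reads in the 5′ side stack as a share of both stacks (y, in %, with exact 95% binomial intervals) against the reads in both (x, log scale) for 99 members with 2 stacks; the dashed line marks 50%. mir-4523 and mir-3943 sit near the top, mir-3615, mir-4787 and mir-3187 near the bottom, and mir-5699 close to the middle.

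The list also gives the edits in each stack, its own tally, which no source used here defines. The median over the 144 members with at least 20 stack reads was 0.145 edits per read, against 0.156 over 325 earlier entries. The most abundant member, mir-3613, had 0.0980. Of 225 member stacks with at least 20 reads, 3 had 0.9 edits per read or more.

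In these 3 stacks the edits about equalled the reads. The 5′ side stack of mir-4804, in an intron of TNPO1, a nuclear import receptor gene (chr5:72174426-72174450, plus strand), had 637 edits in 637 reads, while its 3′ side stack had 62 in 346. The 3′ side stack of mir-4707, at an exon of HAUS4 (chr14:23426166-23426188, minus strand), had 169 edits in 169 reads. The stack of mir-4429 (chr2:11680777-11680798, minus strand) had 76 edits in 79 reads.

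The counts of these entries were modest. They were 53 AGO2 and 111 AGO3 for mir-4804 (log2 ratio 1.25, 0.77 to 1.76), 7 and 14 for mir-4707 (1.13, -0.21 to 2.74) and 27 and 37 for mir-4429 (0.63, -0.11 to 1.42), the last named after its values were seen. Among members with at least 100 reads the next highest were mir-5579, in an intron of TENM4, with 0.315 edits per read (137 edits in the 262 reads of its 3′ side stack, 51 in 334 on the 5′ side), mir-4424 (0.223), mir-3129 (0.209) and mir-3913-1 (0.207). The edits do not name bases or positions, so no change of sequence can be given.

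**Figure D5:**
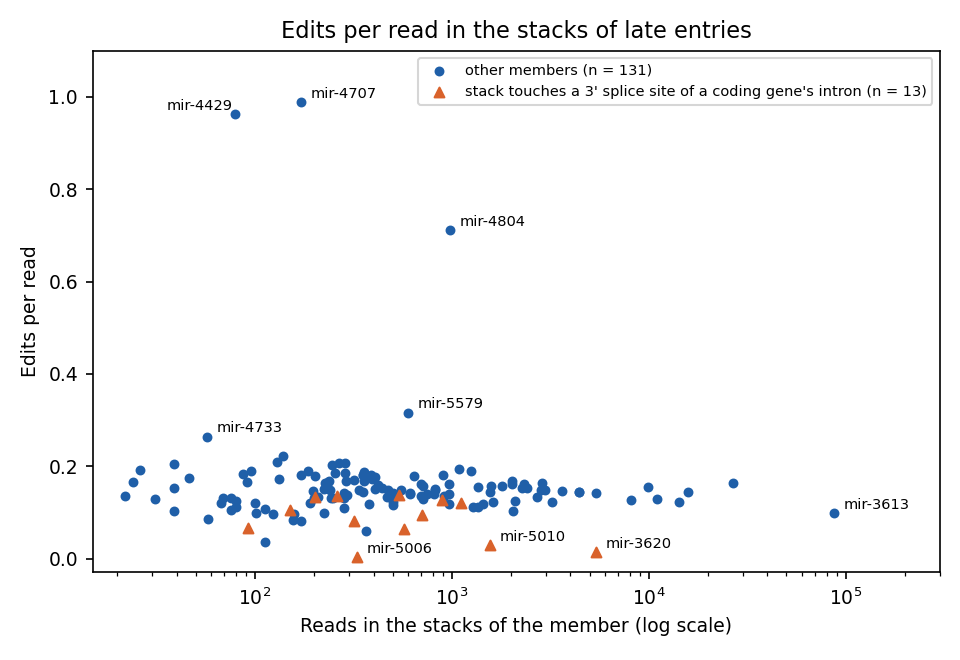
Edits per read (y) against the reads in a member's stacks (x, log scale) for 144 members with at least 20 reads; orange triangles are the 13 members whose stack touches a 3′ splice site of a coding gene's intron and blue circles the other 131. mir-4707, mir-4429 and mir-4804 stand above 0.7, and mir-5006, mir-5010 and mir-3620 lie near 0.

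Some members at a 3′ splice site had few edits. In 13 members the list places a stack in an intron of a coding transcript and at its 3′ splice site, as a mirtron would be. Their median was 0.0953 edits per read (0.00302 to 0.137), and 5 of 13 were under 0.08. Of the 72 other members with at least 20 reads in coding introns, 0 were under 0.08, and their median was 0.151. Over all 144 members with at least 20 stack reads, 7 were under 0.08, among them mir-4484 (0.0354), which is outside the 13. Among earlier entries, 12 at such splice sites had a median of 0.105 with 4 under 0.08, and the 156 others in coding introns had 0.157 with 6 under 0.08.

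The lowest values belonged to 3 entries named after their values were seen. mir-3620, in ARF1, a small GTPase gene, had 72 edits in 5386 reads (chr1:228284964-228285043, plus strand, 80 bases). mir-5010, in ATP6V0A1, a proton pump subunit gene, had 25 edits in the 1451 reads of its 3′ side stack (chr17:40666279-40666308, plus strand) and 20 in the 108 reads of its 5′ side stack. mir-5006, in VWA8, had 1 edit in 331 reads (chr13:42142442-42142511, minus strand). In mir-5010 the low rate was on the side at the splice site and not on the other.

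The 3p sequences of all 3, printed above, end in the bases ag, those of the 3′ end of an intron. Of the 12 3p miRNAs in RefSeq for members at such splice sites 9 (75.0%) end in ag, against 5 of 83 (6.02%) for other members and 22 of 261 (8.43%) for earlier entries. The last 2 bases are the splice acceptor that the annotation already implies, so this is a description.

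The AGO3 over AGO2 ratios of the splice-site members were spread on both sides of 0. mir-3620 had 97 AGO2 and 51 AGO3 counts (-0.73, -1.26 to -0.23), mir-5010 had 10 and 22 (1.28, 0.19 to 2.57) and mir-5006 had 15 and 8 (-0.69, -2.16 to 0.61). Over the 13 the median was -0.07, with 3 at least 2-fold higher and 0 lower. Over the 74 other members in coding introns the median was 0.55, with 21 higher and 2 lower. Of all 638 entries, 18.0% were higher and 10.8% lower. The 13 together had 548 AGO2 and 574 AGO3 counts.

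By sequence the members resembled earlier miRNAs in length and differed somewhat in base content. The 245 mature miRNAs of 154 members had a median length of 22 bases, a median GC content of 52.2% and a first base of U in 101 (41.2%). The 580 of 347 earlier entries had 22 bases, 47.8% and U in 34.7%. On the side with more reads, U came first in 29 of 60 members (48.3%) and in 45 of 96 earlier entries (46.9%). The lead of the members in first U was thus small where the reads chose the arm.

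Among the 154 members and 347 earlier entries with a RefSeq sequence, few members shared a seed with an older miRNA counted here. Entries without such a sequence were not compared, so the number found is a minimum. There were 6, among them miR-3184-5p with miR-423-5p, miR-3155a with miR-484 and miR-4429 with miR-320b and miR-320c, each printed above except miR-320c. The others were miR-3619-5p with miR-214-3p, miR-3187-5p with miR-1285-3p and miR-3129-5p with miR-199b-3p. The older partner was far more abundant in the case of mir-484, which had 77924 counts over both libraries beside 22 AGO2 and 81 AGO3 counts of mir-3155a. Among the members themselves, miR-3176 shared its seed with miR-3922-3p, miR-5699-3p with miR-4421, miR-4525 with miR-5010-5p, miR-5583-5p with miR-3129-3p and miR-4755-5p with miR-5006-3p.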

How the data were processed

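Small RNA from 1 FLAG:AGO2 and 1 FLAG:AGO3 pulldown was analysed. The authors deposited, per library, whole-number counts per miRNA precursor, with total and mapped reads per the file headers. Their deposited stack list gives position, strand, reads, edits and annotation per stack of pooled libraries, and a score (an entropy of read positions, not used here). The submitters' processing notes name Bowtie2 2.1.0 and build hg19 with no role. The miRBase release, mismatches, strand use, and treatment of random bases and of reads matching several entries are given in no source used here.

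The log2 ratio compares an entry's shares of all counts after adding a pseudocount of 0.5, scaled to library size. Intervals are exact (Clopper-Pearson, 95%) and were taken on the AGO3 fraction of an entry's counts. Entries at least 2-fold apart were counted, without a test. An opposite-strand partner was found only where a stack or the list names it. The computation was tested on simulated counts.

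Named members are the top 12 by mean CPM, those with the 8 highest and 8 lowest ratios with at least 100 counts, the 3 highest and 3 lowest with 20 to 99, the 8 with most stack reads, the 6 with most edits per read (at least 100 reads), up to 4 of each list (other RNA classes, opposite strand, numbered copies) and those at the minimum of 20 counts. Members and lists were chosen with earlier results of these data known. Others were named after their values were seen, as stated there. A member that the rule names is not reported here. Alternatives were other scalings, count minimums, pseudocount and members left out. Tools were R 4.3.3 with edgeR 4.0.16 (TMM only), and Python 3.11.15 with scipy 1.17.1, pandas 2.3.3, numpy 2.4.6 and matplotlib 3.10.9.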

Additional observations from a re-analysis of the deposited data

How the results depend on the processing

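With 1 library per group no replicate could be left out. No paired analysis was possible because each group has 1 library. The 46 members at least 2-fold higher and 12 lower in AGO3 became 26 and 4 with a minimum of 50 counts, 13 and 2 with 100, and 125 and 71 with no minimum, which tests 107, 67 and 405 entries. TMM scaling gave 37 higher and 19 lower, and median of ratios 42 and 17. A pseudocount of 1 gave 46 and 12, summed copies 39 and 11, leaving out other RNA classes 46 and 11, and leaving out copies and opposite-strand partners 33 and 9. The median log2 ratio of 0.43 stayed between 0.18 (minimum of 100) and 0.50 (minimum of 50). The members' share of 0.841% in AGO2 and 0.967% in AGO3 became 0.439% and 0.633% of all reads, 1.40% and 1.54% without the 10 most abundant precursors, 0.771% and 0.871% with a minimum of 100 counts, and 0.661% and 0.849% without mir-3613. The 274563 stack reads became 270164 in stacks naming 1 precursor and 187910 without the deepest stack, that of mir-3613. The median of 0.145 edits per read stayed between 0.141 and 0.145. Of 156 values of named ratios under other scalings and pseudocount, 144 stayed within their counting interval and 12 moved beyond it. The signs of mir-4523 (0.12, 0.03 under median of ratios, -0.04 under TMM) and mir-3615 (0.01, -0.07, -0.15) turned. Depth limits members with 20 to 99 counts most.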
